A study of Gossypium herbaceum with 12 samples.

Results

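A set of 88 probe sets of the cotton array shared 2 low states in roots of Gossypium herbaceum: they were low in watered Vagad and low in droughted RAHS-14, each relative to watered RAHS-14. They were taken from 24029 probe sets by their measured values, and the rule picked 0.366% of the array. Every intensity under 16 was raised to 16 before the log2 was taken. G is the mean of watered Vagad minus the mean of watered RAHS-14, and R is the mean of droughted RAHS-14 minus the same mean. A member had G and R of -1 or less, with the 3 arrays of watered Vagad and the 3 of droughted RAHS-14 all below the 3 arrays of watered RAHS-14. The members were thus selected on the measured values of these 3 groups, G and R included, so those values are described here and not tested, and a fall names the measured difference. Both differences use the same 3 arrays of watered RAHS-14.

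RAHS-14 is the drought sensitive genotype and Vagad the drought tolerant one. Root RNA of plants 1 month old was hybridised to 12 cotton arrays, with 3 biological replicates in each of the 4 groups: RAHS-14 and Vagad, both watered and droughted. Controls were irrigated, and droughted pots were kept at a soil moisture below 30%; the sample labels and the methods differ on how long and how often water was withheld, and this is not resolved here. A bulk array cannot tell fewer cells of a type from less RNA per cell. The median intensity was between 60.81 and 74.18 on 10 arrays but 322 and 345.3 on replicates 1 and 2 of droughted Vagad. Those replicates had mean correlations of 0.61 and 0.461 with the other arrays across probe sets, against 0.973 to 0.983 among the 10. Droughted Vagad is therefore described by replicate 3, which is a single array, with replicates 1 and 2 given apart for some members only. Replicates 1 and 2 lay above all arrays of watered RAHS-14 for 44 and 35 of the 88 members. Among all 24029 probe sets they did so for 15435 and 15514.

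The members with a look-up name included touch genes, AP2/ERF, WRKY and NAC factors, cell wall and photosynthesis genes. TCH genes were found in Arabidopsis as transcripts that rise after touch: TCH4 encodes a xyloglucan endotransglucosylase that remodels the cell wall, and TCH2 a calmodulin-like protein that binds calcium. AP2/ERF, WRKY and NAC proteins are families of plant transcription factors that act in stress, hormone and defence responses. Names are those of the best match in another species or of a cotton protein, and roles given below are those known from Arabidopsis unless cotton is named.

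The G criterion, with separated arrays, was met by 436 probe sets, 1.81% of the array, and the members were 20.2% of them. The R criterion was met by 684, or 2.85%, and the members were 12.9% of them. Over the members, G ranged from -3.57 to -1 with a median of -1.37, and R from -7.99 to -1 with a median of -1.7. The median of both differences over all probe sets was 0. The fall was at least 4-fold in both comparisons for 16 members, in watered Vagad for 21 and in droughted RAHS-14 for 35. In watered RAHS-14 the mean intensities of members ran from 34.5 to 4073 with a median of 146.5, and the median over all probe sets was 69.79. Their median was 38.64 in droughted RAHS-14 and 48.36 in watered Vagad, where the medians of all probe sets were 71.89 and 62.58.

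**Figure D1:**
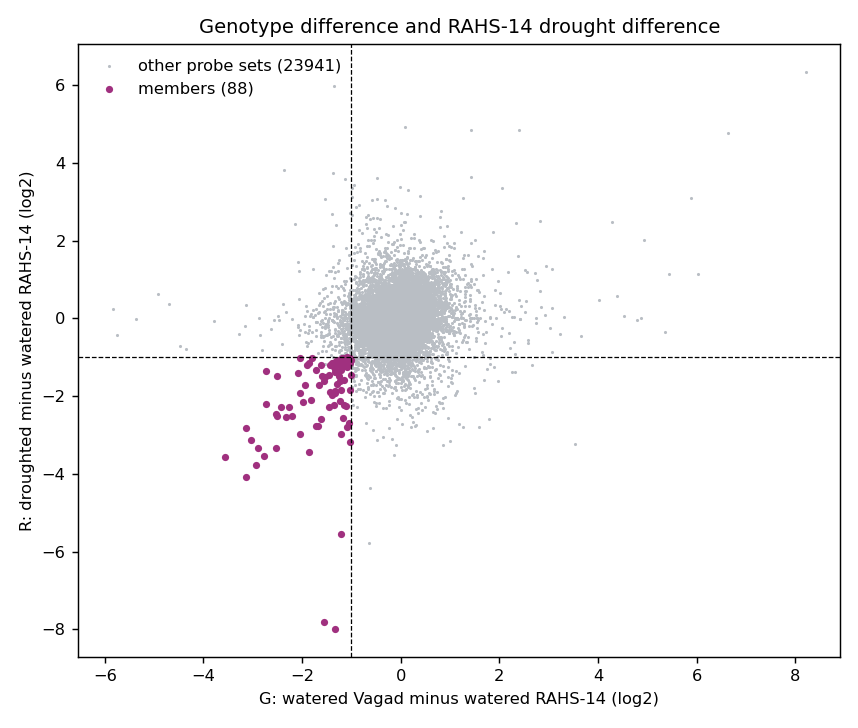
Each point is a probe set, with G on the horizontal axis and R on the vertical axis, both in log2 units, and dashed lines at -1. The 88 members (purple) fill the lower left corner by construction, and 3 of them lie below an R of -5.

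At least 1 array was at or below the floor of 16 for 24 members in watered Vagad and for 26 in droughted RAHS-14, and the falls of these members are lower bounds. Probe sets near the thresholds show how narrow the boundary was. Just inside were Gra2213.2.S1_s_at (G -1.12, R -1.01), GhiAffx62994.1.A1_at (-1.1 and -1) and Ghi1514.1.S1_at (-1 and -1.45). Just outside, with separated arrays, were GhiAffx21605.1.S1_s_at (-0.995 and -1.27), Ghi4315.1.S1_at (-0.993 and -1.75) and GhiAffx36369.1.S1_at (-0.992 and -2.1). A single probe set, GhiAffx22229.1.S1_at (-1.53 and -1.18), met both falls and failed only because its arrays overlapped.

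Gene lists that the study drew from these same arrays held 42 of the members, and 46 were in none of them. Of the 42, 41 were in the list of genes higher in watered RAHS-14. A look-up row of their own named a gene or family for 28 members and an unknown protein for 6. A further 7 had no such row and only repeated text that belonged to another probe set, so the names shown for them are not used as identities here. The remaining 1 was named in a list without a look-up table. Probe sets are written without the point after their prefix. The keyword lists below group probe sets by words in their look-up text. They cover only probe sets of the study's lists, so they are not independent evidence of direction. Their counts stand beside 28 members among all 503 probe sets whose look-up row named a gene or family. Nor are members independent of one another: 12 of them shared an Arabidopsis match with another member, over 5 such matches, and 41 members (46.6%, against 45.1% of all probe sets) had the suffix _s_at or _x_at, which marks probes that can bind related transcripts.

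The transcription factors included the deepest fall in watered Vagad. RRTF1, an AP2/ERF factor that responds to reactive oxygen, was measured by a pair of probe sets. On GhiAffx15854.1.S1_at the arrays of watered RAHS-14 read 209.8, 169 and 195. Droughted RAHS-14 read 15.1, 6.92 and 10.2, and watered Vagad 8.3, 15.6 and 13.5, all of them below the floor. It was at least 11.9-fold lower in both groups. The other probe set, Ghi9720.1.S1_at, read 86, 84.6 and 102.7 in watered RAHS-14 and at most 11.1 on the 6 arrays of the low groups, at least 5.67-fold lower in each. On replicate 3 of droughted Vagad the signal was likewise below the floor on both, at 3.38 and 0.724, while replicates 1 and 2 were above it, at 67.6 and 28.7 on the first and 58.3 and 301.3 on the second.

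CBF4, a DREB factor that binds drought response elements, was at 103.1, 104.2 and 100.5 in watered RAHS-14 (Ghi8116.1.S1_at). It fell to 13.7, 16.8 and 24.1 in droughted RAHS-14 and stood at 15.5, 22.3 and 11.5 in watered Vagad, at least 5.51-fold and 5.74-fold lower. On replicate 3 of droughted Vagad it read 28, above all 6 of these arrays and below watered RAHS-14. A second DREB-type factor (GhiAffx60792.1.S1_at) read 85.3, 98.3 and 93 in watered RAHS-14, between 39.5 and 41 under drought and between 21.4 and 38 in watered Vagad. It was one of the members whose fall was deeper in watered Vagad (3.05-fold) than under drought (2.28-fold), with no overlap of the low groups. An AP2 domain factor (Ghi3673.1.S1_at) went from 82.7 or more in watered RAHS-14 to between 15.7 and 25.7 under drought and between 13.8 and 26.8 in watered Vagad, with 9.5 on replicate 3 of droughted Vagad against 628.3 and 675.1 on the other replicates. The keyword list for AP2/ERF and DREB factors held 7 probe sets with a look-up row, 1 of them a translation release factor caught by its symbol, and 5 were members. These memberships depended on the floor: at a floor of 64, G and R were both -1.57 for GhiAffx15854.1.S1_at, but -0.5 for Ghi9720.1.S1_at, -0.68 for CBF4, -0.45 for Ghi3673.1.S1_at and -0.52 for GhiAffx60792.1.S1_at, so that the last 4 were no longer members.

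ATAF1, a NAC factor of abscisic acid and drought responses, was at 855.5, 818 and 830.2 in watered RAHS-14 (GhiAffx58305.1.S1_s_at). Watered Vagad had 230.6, 238.3 and 221, which was 3.63-fold lower, and droughted RAHS-14 had 90.9, 74.2 and 68.7, which was 10.8-fold lower. The 3 groups did not overlap, and the single array of droughted Vagad, at 84.4, lay among those of droughted RAHS-14. Another probe set named ATAF1, Ghi3264.1.S1_s_at, was no member, with a G of 0.3 and an R of -0.28. WRKY40, a regulator of defence and abscisic acid responses, had the same order: 295.9, 254.4 and 278.8 in watered RAHS-14, between 83.8 and 94.2 in watered Vagad, and 54, 33.7 and 53.8 in droughted RAHS-14 (Ghi9192.1.S1_s_at). Droughted Vagad read 34.3 on replicate 3 and 27.7 and 29.9 on replicates 1 and 2, so WRKY40 was below watered Vagad on all 3 of its arrays. WRKY70 (GhiAffx2014.1.S1_s_at), a factor of salicylic acid signalling, read 177.8, 143.5 and 165.4 in watered RAHS-14, between 51.8 and 72.7 under drought and between 38.6 and 61.8 in watered Vagad. Its low groups overlapped, and replicate 3 of droughted Vagad was lower still, at 17.8. A further WRKY70 probe set, Ghi9193.2.S1_s_at, was low in watered Vagad (G -1.38) but not by the rule under drought (R -0.46). Of 11 WRKY, NAC and MYB factors with a look-up row, 3 were members, 7 met the G criterion and 4 the R criterion.

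TCH4 was the most represented look-up name, with 4 probe sets that may read the same or closely related genes. A table of the study names Ghi1127.2.A1_x_at as XTR6, another xyloglucan transferase, and gives Ghi1127.4.S1_x_at the same Arabidopsis match. Which name holds was not resolved. On Ghi1127.2.A1_x_at the arrays of watered RAHS-14 read 799, 808.8 and 705.6. Those of droughted RAHS-14 read 45.8, 52.7 and 39 (16.9-fold lower) and those of watered Vagad 62.1, 100.2 and 109 (8.76-fold lower). The low groups did not overlap, with drought the lower. Ghi1127.4.S1_x_at read 1056, 1065 and 1034 in watered RAHS-14, between 67.9 and 111.6 under drought and between 124.7 and 176.4 in watered Vagad. Gra623.2.S1_s_at read 1138, 1293 and 1271 in watered RAHS-14 and was 10.2-fold lower under drought and 5.75-fold lower in watered Vagad. On Ghi10493.1.S1_s_at the order of the low groups was turned, since watered Vagad (60.9 to 77.6) lay below droughted RAHS-14 (78.4 to 94.1). In droughted Vagad, replicate 3 read 144.6, 196.3, 214.3 and 109.3 on these probe sets in the order given, above all arrays of droughted RAHS-14 on each and within or above those of watered Vagad. It stayed below the arrays of watered RAHS-14 on all 4. Replicates 1 and 2 read between 30.5 and 395.8.

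TCH2 (GhiAffx5986.1.S1_at) differed from TCH4 in droughted Vagad. Its arrays read 884.8, 805.4 and 766.6 in watered RAHS-14, between 206.8 and 318.7 under drought and between 268 and 292.8 in watered Vagad. In droughted Vagad, TCH2 read 693.2 on replicate 3, which was 1.31 log2 units above watered Vagad and 0.24 below the mean of watered RAHS-14. Replicates 1 and 2 read 23.8 and 50.7. A plasma membrane calcium pump, ACA12 (Ghi3763.1.A1_s_at), which exports calcium from the cytosol, read 395.7, 322.7 and 415 in watered RAHS-14. It read between 68.6 and 103.2 under drought and between 38.9 and 84.8 in watered Vagad, with replicate 3 of droughted Vagad at 83.6 and replicates 1 and 2 at 371.5 and 29.35. A sodium/calcium exchanger with EF hands (GhiAffx5052.1.S1_at) read 99.96, 102.8 and 125 in watered RAHS-14 and between 35.7 and 40.5 on the 6 arrays of the low groups. Replicate 3 of droughted Vagad was at 38.7, and replicates 1 and 2 were at 560.9 and 47.8. Of 20 probe sets whose look-up text named touch, calcium or calmodulin, 7 were members, 4 of them the TCH4 probe sets. Their list had a median G of -0.71 and a median R of -0.43, and 9 met the G criterion and 7 the R criterion.

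The other cell wall member with a look-up name was EXORDIUM, an extracellular protein needed for cell expansion, on a pair of probe sets. GhiAffx18056.1.A1_s_at read 487, 489 and 428.2 in watered RAHS-14. Watered Vagad had 151.4, 129.1 and 145.9, and droughted RAHS-14 had 60.1, 64.7 and 81. Ghi1118.1.S1_s_at read 498.3, 456 and 401.9, then 142.9, 157.1 and 126.3, then 70, 61 and 69.6 in the same order. The 3 groups were thus stepped on both, with falls of 3.29-fold and 3.18-fold in watered Vagad and of 6.87-fold and 6.75-fold under drought. On replicate 3 of droughted Vagad they read 162.7 and 191.4, above all arrays of watered Vagad. Replicates 1 and 2 read 194.7 and 1088 on the first and 1053 and 489.1 on the second. Other probe sets named EXORDIUM were no members: Ghi10089.1.S1_s_at had a G of -0.99 and an R of -1.22, and Gra744.1.S1_s_at a G of -1.95 and an R of -0.34. Pectate lyase, which cleaves pectin, was named for GraAffx7134.1.A1_s_at only in the list without a look-up table. It read 101.4, 121.8 and 136.5 in watered RAHS-14, 27.1 to 35.1 under drought and 30.2 to 58.9 in watered Vagad. Of 18 cell wall genes with a look-up row, 6 were members, all of them TCH4 or EXORDIUM, while 2 others, a hydroxyproline-rich glycoprotein and an expansin-like gene, were at least 2-fold higher without overlap under drought in RAHS-14.

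**Figure D2:**
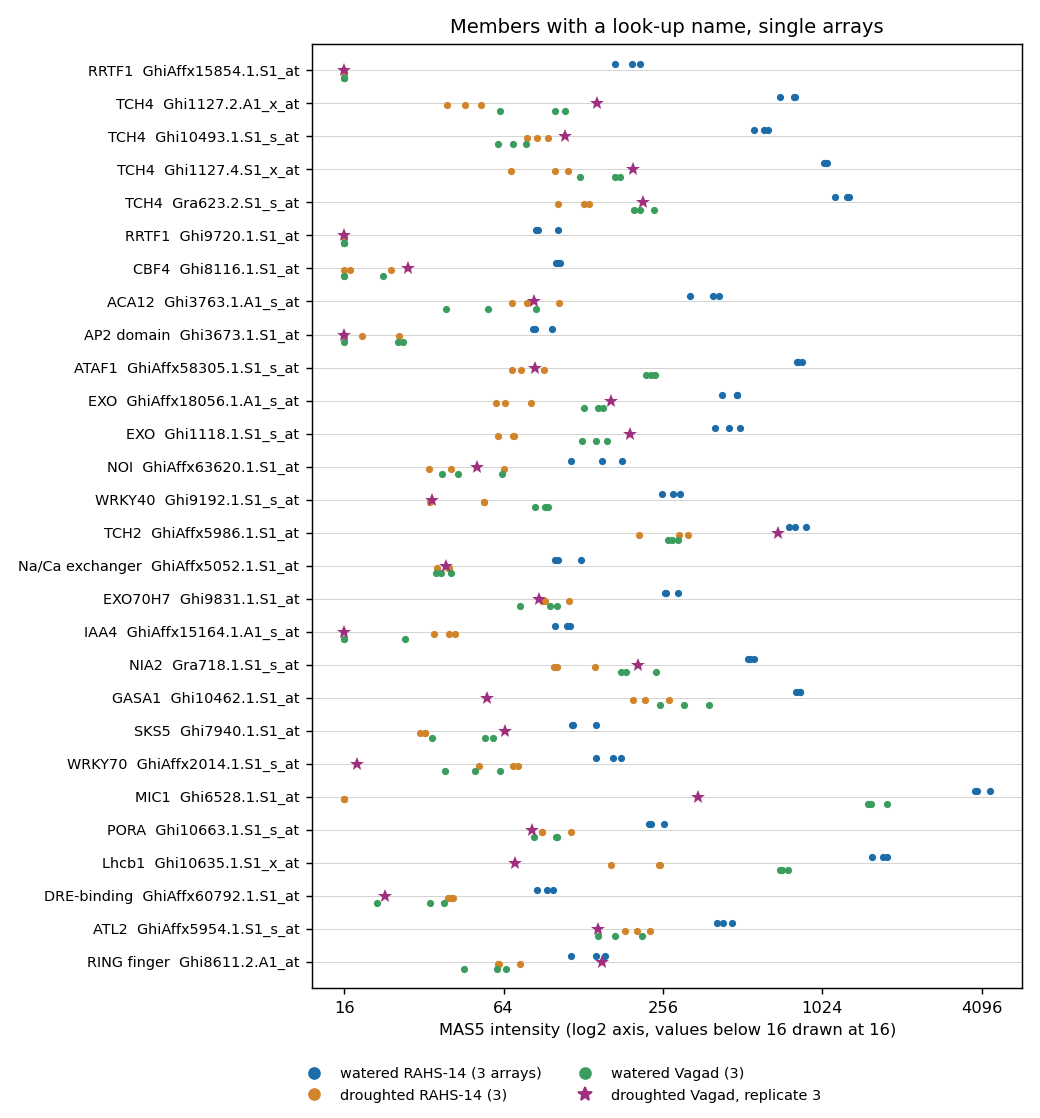
Single arrays of the 28 members with a look-up name, with intensity on a log2 axis and values below 16 drawn at 16. Circles are the 3 arrays each of watered RAHS-14 (blue), droughted RAHS-14 (orange) and watered Vagad (green), and the star is replicate 3 of droughted Vagad, which reaches the blue arrays only for the RING finger gene.

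Hormone response genes were few. IAA4, a repressor of auxin signalling, read 99.9, 113.9 and 111.1 in watered RAHS-14, 34.8 to 42 under drought, and 3.56, 2.86 and 27 in watered Vagad (GhiAffx15164.1.A1_s_at). Its fall was at least 5.67-fold in watered Vagad and 2.79-fold under drought, with no overlap of the low groups. Replicate 3 of droughted Vagad was below the floor at 14.2, and replicates 1 and 2 read 325.5 and 508.7. GASA1, a small protein induced by gibberellin, read 814.6, 841.4 and 842.4 in watered RAHS-14, between 196.9 and 268.8 under drought and between 248.5 and 383.4 in watered Vagad (Ghi10462.1.S1_at). Droughted Vagad read 55.3 on replicate 3 and 135.3 and 31.3 on replicates 1 and 2, below every array of the other groups. Of 5 auxin and gibberellin genes with a look-up row, 2 were members, 4 met the G criterion and 2 the R criterion.

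MIC1, a gene induced in cotton roots by the root knot nematode Meloidogyne, had the deepest fall under drought. Its probe set Ghi6528.1.S1_at read 3939, 4404 and 3875 in watered RAHS-14 and 12.8, 0.859 and 13.6 in droughted RAHS-14, all below the floor and at least 254-fold lower. Watered Vagad read 1790, 1560 and 1525, a fall of 2.51-fold, so the gene was still bright there. Droughted Vagad read 347 on replicate 3 and 895.2 and 1197 on replicates 1 and 2, between the droughted RAHS-14 and watered Vagad arrays on all 3. Another list of the study names this probe set as a sodium/hydrogen exchanger, which was not resolved. It is the only member for which the study gives primers, which are shown because they are the sequences by which this transcript can be found again, 5′ to 3′.
Ghi6528.1.S1_at forward: gcatccttcagccctacaatagc
Ghi6528.1.S1_at reverse: ggatatgagcttcggaggaaaatg

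A pair of members without an identity followed the same course. Ghi6546.1.S1_s_at, which repeats the MIC1 text but has no look-up row, read 3610, 3681 and 3530 in watered RAHS-14, 15.9, 15.7 and 13.9 under drought and 1283, 1139 and 1288 in watered Vagad, with 364.8 on replicate 3 of droughted Vagad. Ghi6472.1.A1_s_at, which has no name and was picked out after its values were seen, read 1213, 1311 and 1294, then 21.4, 40.4 and 23.7, then 448, 529.8 and 705.5, with 193.9 on replicate 3. MIC1 and these were the 3 members with an R below -5. With droughted Vagad taken as replicate 3, the 4 groups stood in each in the order watered RAHS-14, watered Vagad, droughted Vagad and droughted RAHS-14. Replicates 1 and 2 read 147.7 and 62.7 on Ghi6546.1.S1_s_at. On Ghi6472.1.A1_s_at they read 116.6 and 1148, the latter above all arrays of watered Vagad. NOI, a nitrate-induced gene counted with the defence list (GhiAffx63620.1.S1_at), read 114.9, 150.2 and 179.9 in watered RAHS-14 and between 33.3 and 64.4 on the 6 arrays of the low groups. Of 8 defence and wound genes with a look-up row, 2 were members.

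Photosynthesis genes were among the members although the tissue was root. Lhcb1, a chlorophyll-binding antenna protein, read 1730, 1576 and 1798 in watered RAHS-14 (Ghi10635.1.S1_x_at). Watered Vagad had 755.8, 710.3 and 722.7, and droughted RAHS-14 had 247.6, 162.2 and 249. Droughted Vagad read 70.8 on replicate 3 and 23.9 and 45.7 on the others, lower than every other array. PORA, which makes chlorophyllide in the light, read 231.5, 258.5 and 227.1 in watered RAHS-14, with 89 to 114.5 under drought and 83 to 101.8 in watered Vagad (Ghi10663.1.S1_s_at), and droughted Vagad had 81.8 on replicate 3 and 397.2 and 562.7 on the others. The list of photosynthesis genes held 5 probe sets with a look-up row, 2 of them members, and none had a mean at the floor in the 3 groups. The summed intensity of the 5 was 3474 to 3677 in watered RAHS-14, 1576 to 1651 in droughted RAHS-14, 1822 to 2043 in watered Vagad and 710.5 on replicate 3 of droughted Vagad. Without the members the sums were 1517 to 1651, 1253 to 1313, 964 to 1229 and 557.9. The part of green tissue or light in the members was not tested. The 4 root markers with a look-up row, MIC1 among them, had sums of 4656 to 5151, 1308 to 1437, 2163 to 2374 and 1434 in the same order. Without the member MIC1 the sums of the other 3 were 747.1 to 819.3, 1307 to 1423, 583.4 to 637.8 and 1086. None of these 3 was at the floor, and they differed on replicate 3 of droughted Vagad. DEFECTIVE UGE IN ROOT read 857.1 there, against 217.1 to 272.7 in watered Vagad. WEREWOLF read 64.5 against 74.9 to 87.5, and the root kinase ARSK1 164.9 against 266.3 to 290.2.

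The RING and zinc finger proteins, which include ubiquitin ligases, gave 2 members of 5 with a look-up row. ATL2 (GhiAffx5954.1.S1_s_at), induced by chitin, read 429.7, 466.5 and 409.4 in watered RAHS-14, 183.9 to 227.8 under drought and 145.7 to 213.9 in watered Vagad. The other RING finger gene (Ghi8611.2.A1_at) read 115.4, 154.9 and 143.4, then 60.8 to 73.5, then 45.4 to 65.3. On replicate 3 of droughted Vagad ATL2 read 145.9 and the other gene 150, the latter within the arrays of watered RAHS-14. Replicates 1 and 2 read 567.3 and 378.8 for ATL2 and 15.7 and 38.9 for the other gene. Of 24 probe sets whose look-up text named a transporter, channel, exchanger or proton pump, 2 were members, the calcium pump and the exchanger above. No member was found among 30 probe sets whose text held the word kinase, some of them metabolic enzymes or kinase partners, among 15 whose text named heat shock or chaperones, or among 6 genes of thiamine synthesis. In the last list all 6 met the G criterion and 0 the R criterion, and 4 were at least 2-fold higher without overlap under drought in RAHS-14.

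Further named members were described after their values were seen. NIA2, nitrate reductase, read 534, 544.8 and 566.5 in watered RAHS-14 (Gra718.1.S1_s_at). Watered Vagad had 177.4, 241.1 and 185.4, and droughted RAHS-14 had 99.3, 141.9 and 102.1. Droughted Vagad had 205.6 on replicate 3 and 649.8 and 655.5 on replicates 1 and 2. EXO70H7, a subunit of the exocyst that tethers secretory vesicles, was at 260.9 or more in watered RAHS-14 and between 73.7 and 112.5 in the low groups (Ghi9831.1.S1_at). SKS5, related to multicopper oxidases, was at 116.2 or more in watered RAHS-14, 30.8 to 32.2 under drought and 34.2 to 58.2 in watered Vagad (Ghi7940.1.S1_at). Only the first and the last had low groups that did not overlap.

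Members without an identity included some of the deepest falls. Ghi1092.1.A1_x_at and Ghi1092.3.S1_s_at match 1 unknown Arabidopsis protein. The first read 615.5, 694.7 and 639.9 in watered RAHS-14, 46.3, 47.9 and 47.5 under drought and 116.1, 68.3 and 77.7 in watered Vagad. The second read 310.2, 268.1 and 290.2, then 28.2, 30.9 and 27.2, then 41.2, 50.8 and 28.3. On replicate 3 of droughted Vagad they read 43.4 and 14.2, lower than all of these. Replicates 1 and 2 read 17.5 and 22.8 on the first. On the second they read 437.8 and 844.7, above all arrays of watered RAHS-14. Another unknown protein was matched by Ghi3284.1.S1_s_at, with 182.1, 265.8 and 230.5 in watered RAHS-14 and 29.8 to 62.9 on the arrays of the low groups, and by GhiAffx7649.1.S1_s_at, with 67.5 to 92 against at most 18.3. GhiAffx22862.1.A1_at, which is in none of the lists, read 83.9, 90.6 and 119.2 in watered RAHS-14 and at most 27.7 in the low groups.

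The fall of Ghi96.1.S1_at rested on arrays that varied. It read 375.5, 154.6 and 471.2 in watered RAHS-14, between 31.7 and 37.9 under drought and between 35.8 and 38.5 in watered Vagad. The text shown for it, a telomere-repeat binding protein, is that of another probe set. The same holds for Ghi9149.4.A1_s_at, shown as a transcription factor, which read 792.5, 1044 and 728.5 in watered RAHS-14 and 186.9 to 289.2 in the low groups. GhiAffx18859.1.S1_at repeats the EXORDIUM text and read 121.7, 83.7 and 157 in watered RAHS-14 and 11.4 to 35.7 in the low groups.

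How alike the low states were was described by setting the 3 arrays of droughted RAHS-14 beside the 3 of watered Vagad, which both chose the members. They overlapped for 55 members. Droughted RAHS-14 lay wholly below for 24 members, or 27.3%, against 15.4% of all probe sets. Watered Vagad lay wholly below for 9, or 10.2%, against 19.9%. No test was made. The difference of the means was -0.07 log2 units at the median, and it ran from -6.66 for MIC1 to 1.39 for GhiAffx48041.1.S1_a_at. It was 1 or more in size for 13 members lower under drought and for 3 lower in watered Vagad. The latter were GhiAffx48041.1.S1_a_at, IAA4 and Ghi10112.1.S1_s_at, which matches an unknown protein and read 1870, 2233 and 1807 in watered RAHS-14, 1062, 877.9 and 967.7 under drought and 407.2, 541.8 and 497.6 in watered Vagad.

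**Figure D3:**
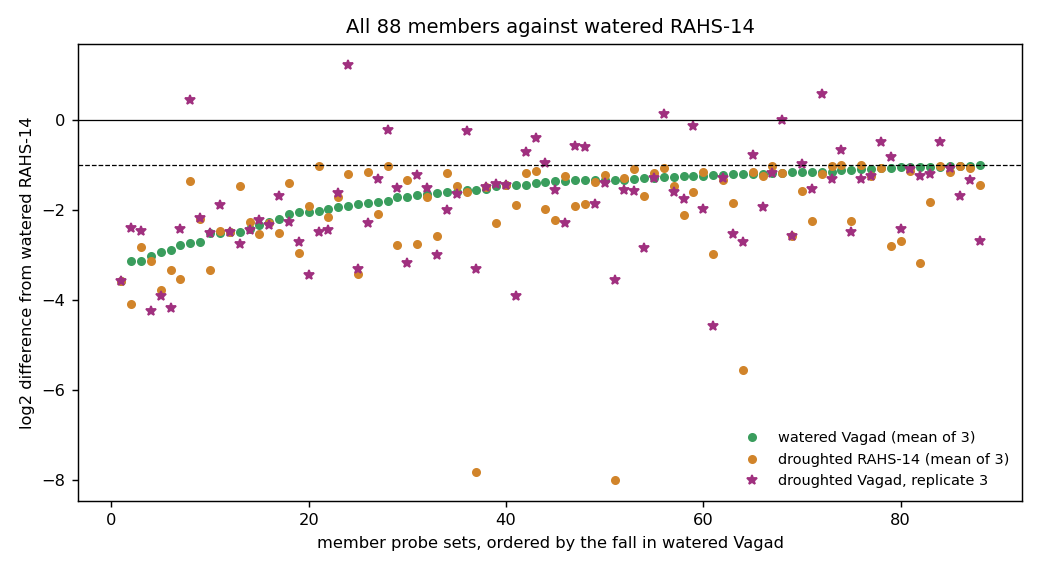
Log2 difference from the mean of watered RAHS-14 for the 88 members, ordered by the fall in watered Vagad (green, mean of 3 arrays), with droughted RAHS-14 (orange, mean of 3) and replicate 3 of droughted Vagad (purple star). The dashed line marks the threshold of -1, which the rule set for green and orange only, and replicate 3 lay below all 3 arrays of watered RAHS-14 for 82 members.

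Droughted Vagad was not used by the rule. Its replicate 3 lay below all 3 arrays of watered RAHS-14 for 82 of the 88 members, or 93.2%, against 26.6% of all probe sets. The 348 probe sets that were low in watered Vagad but not drought-repressed gave 57.8%, and the 596 that were drought-repressed in RAHS-14 but not low in watered Vagad gave 82.2%. The share over the members shares its watered RAHS-14 arrays with the rule, and these differences rest on 1 array and were not tested. Replicates 1 and 2 lay below the same arrays for 38 and 49 members, 43.2% and 55.7%, against 28.9% and 30.7% of all probe sets. All 3 arrays of droughted Vagad lay above those of watered Vagad for 16 members and below them for 9, beside 18.2% and 9.16% of all probe sets.

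Against watered Vagad, replicate 3 was below all 3 arrays for 30 members (34.1%, against 23.4% of all probe sets), within them for 32 and above them for 26 (29.5%, against 33.6%). Its median difference was -0.07 log2 units, with quartiles of -0.66 and 0.44. Over all probe sets the median was 0. In the sets that met only 1 criterion the medians were 0.9 where only watered Vagad was low and -0.73 where only droughted RAHS-14 was low. Against droughted RAHS-14 the median over the members was 0.07, with quartiles of -0.31 and 0.8, and those of the other sets were -0.41 and 0.62. Replicate 3 differed from the mean of watered Vagad by 2-fold or more for 17 members as the lower and for 8 as the higher, beside 3.97% and 5.72% of all probe sets. The largest falls among members with a look-up name were those of Lhcb1 (-3.36), GASA1 (-2.48) and MIC1 (-2.22). The 6 members not below watered RAHS-14 were the RING finger gene Ghi8611.2.A1_at and 5 probe sets without an identity, picked out after their values were seen. Of these, GhiAffx43013.1.A1_at read 146 against 46.5 to 73 in watered RAHS-14, and GraAffx7059.1.A1_s_at read 90.4 against 53.2 to 67.6, above all arrays of watered RAHS-14 in both.

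**Figure D4:**
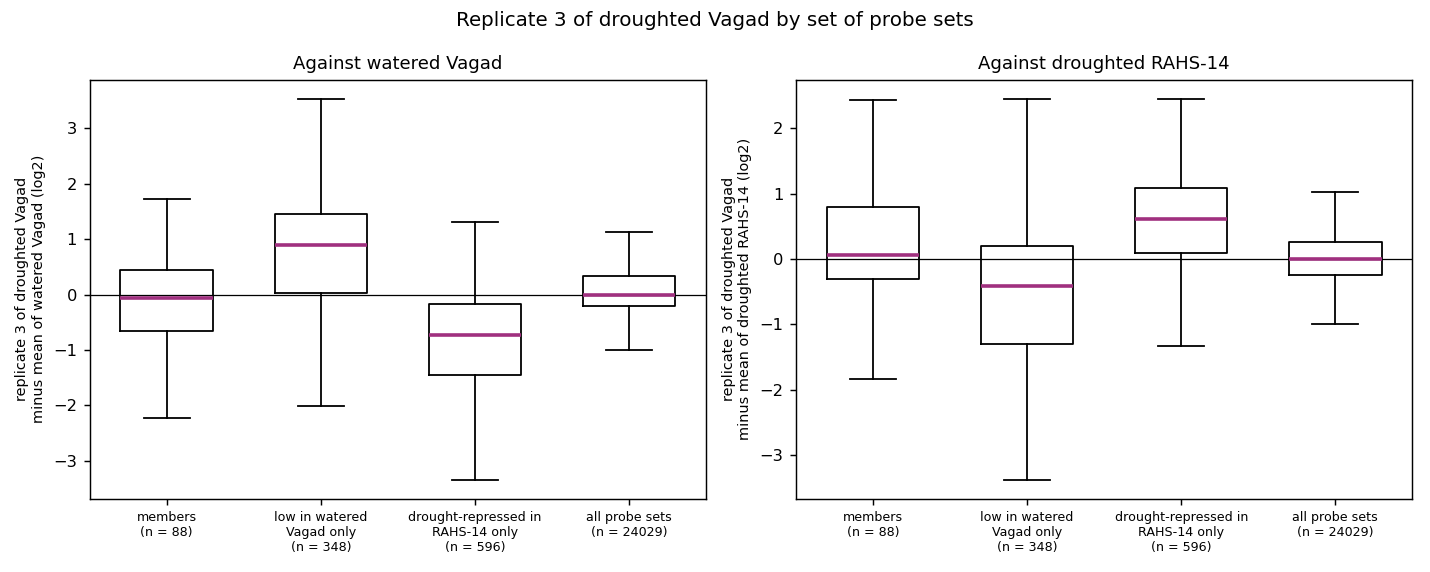
Box plots (median, quartiles and whiskers to 1.5 times the interquartile range, points beyond them not drawn) of replicate 3 of droughted Vagad minus the mean of watered Vagad (left) and of droughted RAHS-14 (right), in log2 units. Each panel shows the 88 members, the 348 and 596 probe sets that met only 1 criterion, and all 24029 probe sets, with medians of -0.07, 0.9, -0.73 and 0 on the left.

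With all 3 arrays of droughted Vagad, limma called 0 members against watered Vagad and 0 against droughted RAHS-14 in either direction, with a fold of at least 2 and a p under 0.05 after Benjamini-Hochberg adjustment, where 0% of all probe sets were called. At an unadjusted p under 0.05 and the same fold, 7 members were lower and 10 higher than in watered Vagad, beside 2.41% and 10.9% of all probe sets. Against droughted RAHS-14, 2 were lower and 14 higher, beside 2.61% and 8.34%. The methods' t-test after adjustment likewise called 0 members. A fit of 10 arrays without replicates 1 and 2 assumes that replicate 3 varies like the other groups, and its calls rest on that array. It called 14 members lower and 7 higher than in watered Vagad, beside 2.8% and 3.19% of all probe sets, and 8 lower and 14 higher than in droughted RAHS-14, beside 2.33% and 1.96%. Each comparison holds a group that chose the members, so nothing is read from these counts, and no p-value of a single member is given.

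In the fit of 10 arrays the differences of single members rest on 1 array of droughted Vagad and are given as log2 values only. Against watered Vagad they were -2.22 for MIC1, -3.36 for Lhcb1, -1.45 for ATAF1, -2.48 for GASA1, -1.39 for WRKY40 and -1.47 for WRKY70. They were 1.31 for TCH2 and 1.41 for the RING finger gene Ghi8611.2.A1_at. Against droughted RAHS-14, MIC1 was higher by 4.44 log2 units and EXORDIUM on Ghi1118.1.S1_s_at by 1.52, while GASA1 was lower by a log2 difference of -2.03.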

How the data were processed

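Root RNA was measured on 12 Affymetrix cotton arrays. The labels count 12 plants, 3 in each group, but tie no array to a plant. The deposited values were linear intensities from MAS5 in GCOS, with which the authors scaled each array to a common target, and single arrays can still differ in background. The methods also name RMA values, not used here. Of 24132 probe sets, 103 controls were left out. Values below 16 were set to 16 and log2 values taken. Fits used limma 3.58.1 in R 4.3.3 (lmFit, eBayes), on the 6 arrays of a pair of groups, tested on simulated data. The simulated arrays varied as those of watered Vagad or droughted RAHS-14 did, not as those of droughted Vagad. They therefore do not show what the fits of the real arrays could call. Tables used Python 3.11.15. Precision is limited by the small number of arrays. Names came from the study's lists, which hold 1055 probe sets, 542 of them with a look-up row and 116 showing another row's text. Only look-up rows entered the keyword lists, whose search words were corrected after the matched texts were read. The reference table gave locus numbers without roles. Columns with the authors' fold changes and p-values in those lists were not used. Members and lists were chosen with earlier results of these data known. Genes were named by rule: the 20 named members with the largest smaller fall, those of a keyword list or named in the paper, the 5 deepest without a name, and those nearest the thresholds. Alternatives were floors, scalings, folds, fits and leaving out each array.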

Additional observations from a re-analysis of the deposited data

Results flagged for a closer look

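For 4 members named by the rule, the 3 arrays of droughted Vagad lay above those of watered Vagad. The 3 arrays of droughted RAHS-14 lay below those of watered RAHS-14, as the rule demands of every member. The measured directions were thus opposite on these arrays. Droughted Vagad lay wholly above watered Vagad for 16 of the 88 members, about the same share as the 18.2% of all probe sets. The rule set the direction in RAHS-14, so the opposite directions do not set the members apart from the array. The mean log2 difference of droughted from watered Vagad was 1.2 for EXORDIUM on GhiAffx18056.1.A1_s_at and 1.71 on Ghi1118.1.S1_s_at. It was 1.99 for GhiAffx18859.1.S1_at, which only repeats the EXORDIUM text, and 2.16 for Ghi9149.4.A1_s_at. The difference between the genotypes was not tested. These means include replicates 1 and 2 of droughted Vagad, whose median intensities were 322 and 345.3. On replicate 3 alone the differences from watered Vagad were 0.2, 0.44, 0.51 and 0.32.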

How the results depend on the processing

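A floor of 64 left 47 members, all of them among the 88. Median centring kept 74 and quantile normalization 69 of the 88. A threshold of 1.5-fold gave 320 members and one of 4-fold gave 16, and leaving out 1 array gave 87 to 103. Replicate 3 of droughted Vagad was below watered RAHS-14 for 82 or 83 members when 1 array was left out, against 38 for replicate 1 and 49 for replicate 2. At a floor of 64 replicate 3 was below for 66 members, and after either scaling for 82. With droughted RAHS-14 lower, the count without overlap was 17 at a floor of 64, 31 after median centring and 36 after quantile normalization. It was 26 to 30 over the fits that each lacked 1 array. With watered Vagad lower it was 2 at a floor of 64 and ranged from 9 to 14 over those fits, with 14 reached without replicate 2 of watered Vagad. The median of replicate 3 against watered Vagad was 0 at a floor of 64, -0.21 after median centring and -0.22 after quantile normalization. Against droughted RAHS-14 it was 0, 0.09 and 0.11 in the same order. With 1 array left out, the medians ran from -0.11 to -0.04 against watered Vagad and from 0 to 0.1 against droughted RAHS-14. Members called lower than watered Vagad were 1 at a floor of 64, 14 in the fit of 10 arrays, 6 in that of all 12, 6 with the methods' t-test unadjusted and from 0 to 7 over those fits. Called higher were 7 in the fit of 10 arrays, 2 in that of 12, 3 with the unadjusted t-test and from 0 to 29 over those fits. Against droughted RAHS-14, called lower were 8 in the fit of 10 arrays, 1 in that of 12, 2 with the unadjusted t-test and from 0 to 3 over those fits, and called higher were 14, 5, 10 and from 0 to 31. Every call of a fit lacking 1 array came from leaving out replicate 3 of droughted Vagad, which leaves the replicates that stand apart. The cause of these changes was not tested. Without replicate 3, 7.95% of members and 8.36% of all probe sets were called lower than watered Vagad. Called higher were 33% and 30.2%. Against droughted RAHS-14 these shares were 3.41% and 9.02% lower, and 35.2% and 29.6% higher. In the fit of 12 arrays, 6.82% and 0.866% were lower than watered Vagad, and 2.27% and 2.2% higher. Against droughted RAHS-14 they were 1.14% and 0.221% lower, and 5.68% and 0.308% higher. The unadjusted t-test called 6.82% of members lower and 3.41% higher than watered Vagad, beside 1.83% and 4.03% of all probe sets. Against droughted RAHS-14 it called 2.27% lower and 11.4% higher, beside 2.06% and 3.08%. With the replicate number as a block in the main fit, 0 members were called in each direction, as without it. Same-numbered arrays of droughted Vagad and of watered Vagad or droughted RAHS-14 had correlations of their deviations between -0.03 and 0.05. The numbers were not taken to pair arrays. Because replicates 1 and 2 of droughted Vagad stand apart, these correlations cannot exclude a pairing, and other pairs of groups were not examined. No value of G or R of the 37 named members changed sign under the scalings or when 1 array was left out. At a floor of 64 at least 1 ended at 0. For the floor and the array left out, the separated arrays that the rule demands fixed the sign in advance. Of 74 values, 38 moved by at least the larger standard deviation of their groups at a floor of 64. After quantile normalization 25 moved so far, and after median centring 8.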
